A study of Homo sapiens with 4 samples.

Results

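Translation initiation, elongation and release factors are the soluble proteins that load ribosomes onto mRNA, move them along it and free the finished chain. The genes described here were taken by name from the annotation of the array: every probe set with a single gene symbol that starts with EIF1 to EIF6, EEF1 or EEF2, or is ETF1 or GSPT1. The EIF2AK kinases, EEF1E1, Y-linked genes, pseudogenes and antisense or divergent transcripts were left out. This gave 143 probe sets of 55 genes, out of 19775 genes with a probe set of a single symbol. Of these 55 genes, 54 were bright enough to be tested, among 14349 tested genes in all. EIF4A2, a paralog of the cap-complex helicase, was not tested, since the only probe set that names it alone stayed at or below a signal of 40.4 on all 4 arrays. The rule goes by gene name and uses no measured value, although it was set with earlier results of these data known.

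In background terms, initiation begins when EIF2, bound to GTP, carries the initiator tRNA to the small ribosomal subunit, where EIF1, EIF1A, EIF3 and EIF5 help to find the start codon. EIF2B then reloads EIF2 with GTP, and stress kinases slow initiation by phosphorylating the alpha subunit of EIF2, which turns EIF2 into an inhibitor of EIF2B. The EIF4 factors bind the mRNA cap and unwind the leader, the EIF4E-binding proteins hold EIF4E back until they are phosphorylated downstream of MTOR, EEF1 and EEF2 drive elongation, and ETF1 with GSPT1 ends it.

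The study set HCT116 cells, an established human colon carcinoma line, grown as spheroids (rounded cell aggregates) against the same cells grown as monolayer, the usual flat culture. Total RNA was hybridised to Affymetrix HG-U133 Plus 2 arrays, on which a gene is read by 1 or several probe sets. There were 4 arrays: spheroids of HCT116 wt, spheroids of the line labelled HCT116 wt/GFP, monolayer of HCT116 wt and monolayer of HCT116 wt/GFP, with 1 array each. The labels used here do not tell how the wt/GFP line was made or how old and large the spheroids were. The 2 lines therefore stood as the replicates of each growth condition. The p-values speak only for these 4 arrays, and rest mostly on a spread pooled over genes of like brightness, not on each gene's own.

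All 4 deposited arrays had the same trimmed mean signal, about 500.1, while the median signal was 67.0 and 68.2 on the wt and wt/GFP spheroid arrays, against 47.9 and 48.6 on the wt and wt/GFP monolayer arrays. The highest signal was 68036 and 67033 on the wt and wt/GFP spheroid arrays, against 59323 and 42706 on the wt and wt/GFP monolayer arrays, so the top of the scale was lowest on the wt/GFP monolayer array. The median log2 change of all tested genes, spheroids minus monolayer, depended on how the arrays were scaled: 0.23 as deposited, 0.02 once quantile-normalized, -0.17 once centred on each array's median and -0.37 relative to 18 spiked hybridisation controls. A rise under the deposited scaling is therefore read here against an upward shift of 0.23. The ratio of 3′ to 5′ signal of ACTB, a sign of RNA integrity and labelling, was 1.76 and 1.73 on the spheroid arrays, against 1.32 and 1.30 on the monolayer arrays, and its part in the results was not tested. Markers of colon epithelium were present (KRT18 had 32967 and 30896 in the wt and wt/GFP spheroids, against 32538 and 25741 in the wt and wt/GFP monolayers), while CDX1, CDX2, VIL1 and LGALS4 were dim. Of the 8 such markers tested 4 rose and none fell with the deposited scaling, against 30.6% and 18.5% of all genes. CDH1 rose by 2.36 (limma adjusted p = 8.72e-15, and under all 4 scalings). VIL1 rose by 1.42, KRT19 by 0.40 and EPCAM by 0.38, but not under all 4. With the hybridisation controls KRT19 was at -0.19 and EPCAM at -0.22. The 9 markers summed to 115297 and 113820 in spheroids, against 104913 and 86599 in monolayer, and their part in the results was not tested. Of the fibroblast markers COL1A1 rose in spheroids, by 3.14 on the log2 scale (limma adjusted p = 2.04e-15, and under all 4 scalings). COL3A1 rose by 1.45 with the deposited scaling (limma adjusted p = 0.048) but not under all 4. It was dim, with 57.4 and 79.8 in the wt and wt/GFP spheroids, against 29.5 and 6.6 in the wt and wt/GFP monolayers. DCN was near background, and COL1A2, LUM and PDGFRB were below the filter. The summed signal of the 6 fibroblast markers was 3268 and 5050.1 in spheroids, against 943 and 873 in monolayer, and that of the 5 leukocyte markers 159 and 136 in spheroids, against 213 and 118 in monolayer, with PTPRC and CD14 below the filter. The 4 endothelial markers summed to 333 and 426 in spheroids, against 297 and 212 in monolayer, with VWF, CDH5 and KDR below the filter. In RNA from whole cultures, fewer cells that make a transcript and less of it per cell cannot be told apart.

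Most translation factor genes were lower in spheroids. Of the 54 tested genes, 28 fell and 12 rose at a limma adjusted p under 0.05 with the deposited scaling, and 14 did not pass the test. Among all tested genes, 18.5% fell and 30.6% rose, so with this scaling falls outnumbered rises among the translation factors and rises outnumbered falls over the array. Their median log2 change was -0.35, which is -0.58 relative to the median of all genes. The fall reached 2-fold or more in 5 genes (EIF2B1, EIF2B3, EIF2S1, EIF4E2 and EIF6), against 5.04% of all genes, and no member rose 2-fold or more, against 14.8% of all genes. On the arrays themselves, both spheroid signals lay below both monolayer signals for 32 of the 54 genes, against 26.5% of all genes, and above both for 17, against 47.1% of all genes.

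Quantile normalization, which changes genes of different brightness by different amounts, kept most calls. After it 29 members fell and 11 rose, against 21% and 23.6% of all genes. These included 27 of the 28 genes that fell with the deposited scaling, EIF4H being the exception at -0.19, and 8 of the 12 that rose, without EEF1A1, EEF2K, EIF3E and EIF4E3. Median centring and scaling to the hybridisation controls lower every fitted log2 change by the same amount, 0.39 and 0.59, so by construction they deepen falls and take away rises. The hybridisation controls were higher in spheroids by a median of 0.39 in wt and 0.78 in wt/GFP. Scaling to them therefore also altered the SE, from 0.12 to 0.31 for EIF2B1 and from 0.15 to 0.13 for EEF1A1. Calls with these controls rest on the altered SE as well as on the shift. After median centring 35 members fell and 1 rose, against 32.3% and 16.4% of all genes, and with the hybridisation controls 35 fell and 0 rose, against 28.1% and 7.48%. Calls under all 4 scalings numbered 27 falls and 0 rises, against 17.2% and 7.48% of all genes. Where a value with the hybridisation controls is given below, it is the deposited change less 0.59, and it shows how far the sign rests on the choice of zero. Both lines gave the same sign for 50 of the 54 genes, and the gap between the changes of the 2 lines had a median of 0.18 on the log2 scale. The counts rest on how the spread was estimated: with no intensity trend in the variance only EIF4B rose and 9 members fell (EIF1AD, EIF2B1, EIF2B3, EIF2B4, EIF2S1, EIF3J, EIF4E2, EIF6 and ETF1), and without the cell line as a pair in the fit 6 rose and 28 fell. With probe sets that may detect related transcripts left out, 43 members were tested, of which 11 rose and 14 fell, and the rises numbered 2 without the wt/GFP spheroid array, 4 without the wt spheroid array and 5 without the wt/GFP monolayer array. Shares of all genes are not given for these alternatives of fit, probe set choice and arrays, so their counts cannot be set against all genes. No member differed between wt/GFP and wt arrays at an adjusted p under 0.05, against 0.0279% of all genes.

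**Figure D1:**
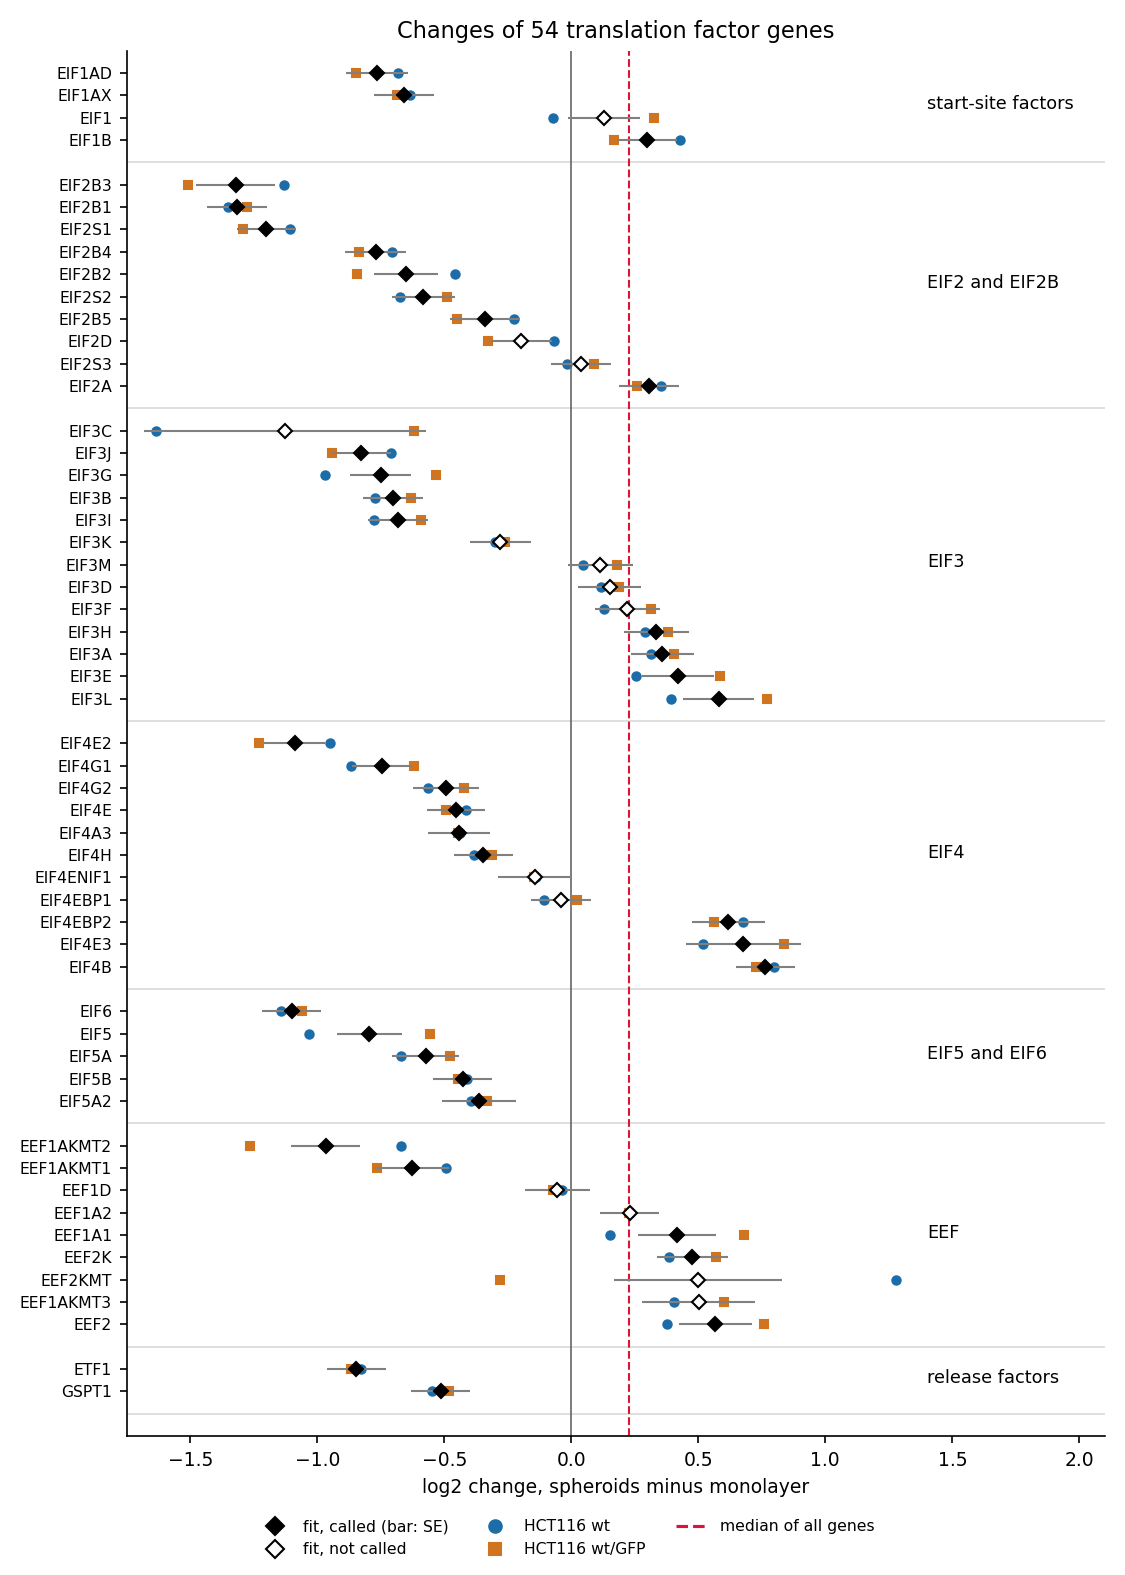
Log2 change in signal, spheroids minus monolayer, for each of the 54 tested genes, grouped by role; diamonds are the limma estimates over both lines with bars of 1 SE (filled where the adjusted p was under 0.05), circles are HCT116 wt and squares HCT116 wt/GFP, and the dashed line is the median of all genes at 0.23. The filled diamonds of EIF2B1, EIF2B3, EIF2S1, EIF4E2 and EIF6 lie beyond -1 on the log2 scale, and no diamond lies beyond 1. Of the diamonds right of 0, those of EIF4B, EIF4E3 and EIF4EBP2 stayed positive in sign under all 4 scalings and the others did not; EIF4EBP1, left of 0, was positive after quantile normalization.

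The letters at the transcription start differed between the members that fell and the others, and some are shown here for that reason. Many mRNAs of the translation apparatus begin with a 5′ terminal oligopyrimidine tract, a C followed by a run of pyrimidines, through which MTOR and LARP1 are known to control their translation and stability. RefSeq promoter sequences of GRCh38.p14, running 250 bases before to 50 bases after each annotated start, were matched by symbol for 42 of the 54 tested members, with 58 starts among them. EEF1A2, EEF1AKMT1, EEF1AKMT3, EEF1D, EEF2KMT, EIF2S2, EIF3A, EIF3E, EIF3G, EIF3H, EIF3L and EIF4EBP1 had no match. The pattern searched, on the transcribed strand at the start itself, was a C followed by 4 bases that are each C or T. It was chosen after the values had been seen, so the counts carry no test. A match is a description of the annotated letters and not a mapped start in these cells.

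Each line below gives 30 bases before the annotated start and 15 from it, 5′ to 3′ on the transcribed strand, with the 5 bases from the start in capitals. The first 4 are the members with the pattern that rose with the deposited scaling, at chr12:53006426-53006470 (plus strand), chr19:3985449-3985493 (minus strand), chr6:73521018-73521062 (minus strand) and chr3:150546757-150546801 (plus strand). The next 3 are EIF3 subunits with the pattern that did not pass the test, at chr11:7987307-7987351 (plus strand), chr22:36529152-36529196 (minus strand) and chr11:32583801-32583845 (plus strand). The last 3 are the 3 members with the largest falls, which lack it, at chr1:44986581-44986625 (minus strand), chr12:123633672-123633716 (minus strand) and chr14:67360298-67360342 (plus strand).
EIF4B: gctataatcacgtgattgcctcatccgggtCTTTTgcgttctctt
EEF2: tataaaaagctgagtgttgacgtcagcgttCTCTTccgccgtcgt
EEF1A1: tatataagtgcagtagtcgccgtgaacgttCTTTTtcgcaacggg
EIF2A: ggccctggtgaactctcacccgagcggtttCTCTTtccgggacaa
EIF3F: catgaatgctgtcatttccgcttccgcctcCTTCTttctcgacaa
EIF3D: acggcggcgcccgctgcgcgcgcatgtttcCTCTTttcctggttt
EIF3M: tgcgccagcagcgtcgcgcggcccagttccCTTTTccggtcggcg
EIF2B3: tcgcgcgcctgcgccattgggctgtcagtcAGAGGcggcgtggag
EIF2B1: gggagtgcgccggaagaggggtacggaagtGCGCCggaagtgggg
EIF2S1: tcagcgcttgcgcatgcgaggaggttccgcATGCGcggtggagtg

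The pattern stood at a start of 10 of the 42 members (23.8%), against 779 of 11506 tested genes with a promoter sequence (6.77%). None of the 25 members that fell with the deposited scaling had it. It was present in 4 of the 8 that rose (EIF4B, EEF2, EEF1A1 and EIF2A) and in 6 of the 9 that did not pass the test (EIF3F, EIF3D, EIF3M, EIF2S3, EIF2D and EIF3K). Of these 6, EIF2S3, EIF2D and EIF3K passed as falls after median centring and with the hybridisation controls. EIF3M did so with the hybridisation controls only, and EIF3F and EIF3D passed as rises after quantile normalization. The log2 changes of the 10 ran from -0.28 to 0.76 with a median of 0.19, and those of the other 32 from -1.32 to 0.68 with a median of -0.66. Members with several annotated starts had more chances to match, but among the 32 members with a single start the pattern again stood in 10, none of them among the 16 that fell. Over all genes the separation was small: 38.5% of the 779 genes with the pattern rose and 17.5% fell, with a median of 0.28, against 29.9% and 19.9% of the genes without it, with a median of 0.19. With the hybridisation controls, which lower all changes alike, only EIF4B of the 10 stayed above 0, at 0.17.

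**Figure D2:**
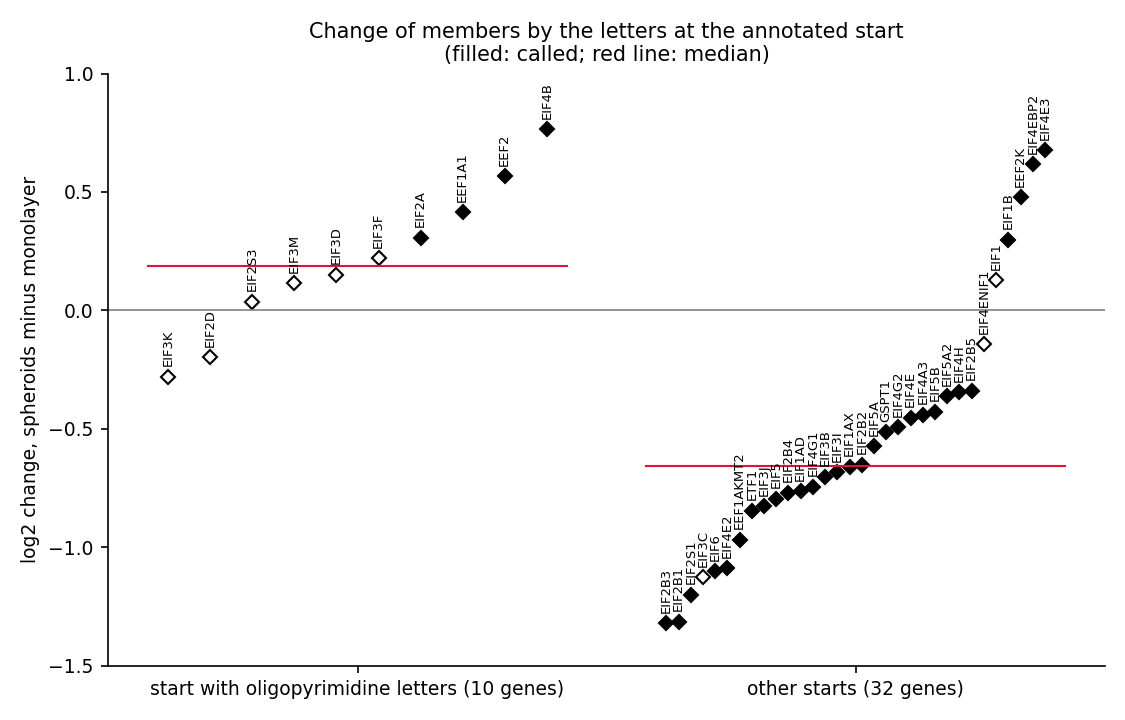
Log2 change in signal, spheroids minus monolayer, of the 42 members with a RefSeq promoter sequence, split by whether an annotated start begins with the oligopyrimidine letters; filled diamonds passed the test and red lines are medians, 0.19 for 10 genes with the letters and -0.66 for the 32 others. All 25 members that fell are in the right-hand column; the changes are with the deposited scaling, and of the 10 on the left only EIF4B stayed above 0 with the hybridisation controls.

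Among the start-site factors, the EIF1A side fell and EIF1 itself did not pass the test with the deposited scaling. EIF1AX, the X-linked gene of EIF1A, which keeps the scanning ribosome open, had signals of 8383 in wt spheroids and 8039 in wt/GFP spheroids, against 13024 in wt monolayer and 12928 in wt/GFP monolayer. The groups did not overlap, and EIF1AX fell by 0.66 ± 0.12 (SE) on the log2 scale (limma adjusted p = 3.08e-05). EIF1AD, which encodes a protein with an EIF1A-like domain, had 1613 in wt spheroids and 1573 in wt/GFP spheroids, against 2594 in wt monolayer and 2842 in wt/GFP monolayer, again with no overlap, and fell by 0.76 ± 0.12 (limma adjusted p = 6.53e-06). EIF1, the gatekeeper of start-codon choice, had 39648 in wt spheroids and 39009 in wt/GFP spheroids, against 41652 in wt monolayer and 31082 in wt/GFP monolayer. The 2 lines pointed opposite ways for EIF1, whose estimate of 0.13 ± 0.14 did not pass the test with the deposited scaling. Of the 7 EIF1 probe sets, tested singly with that scaling, 2 dim ones rose, by 0.54 and 0.74, and 5 did not pass the test. EIF1 passed as a fall after quantile normalization (-0.20, limma adjusted p = 0.0418) and with the hybridisation controls (-0.46, limma adjusted p = 0.00738), but not after median centring. Its paralog EIF1B had 9387 in wt spheroids and 8605 in wt/GFP spheroids, against 6965 in wt monolayer and 7655 in wt/GFP monolayer, all spheroid values being the higher. EIF1B rose by 0.30 ± 0.12 (limma adjusted p = 0.0372) with the deposited scaling, near the median of all genes, and was -0.29 with the hybridisation controls.

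The EIF2 and EIF2B group was the lowest of the 4 large families. Of its 10 genes, all tested, 7 fell, 1 rose and 2 did not pass the test, against 18.5% of all genes falling and 30.6% rising. Its median log2 change was -0.62 with the deposited scaling, which is -0.84 relative to all genes, and it was -0.55 after quantile normalization. The median was -0.57 in wt and -0.66 in wt/GFP. Every subunit of EIF2B, the exchange factor that recharges EIF2, fell: 5 of 5, with a median of -0.77. Of the 3 subunits of EIF2, 2 fell with the deposited scaling.

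EIF2B1, the alpha subunit of the exchange factor and part of its regulatory core, had signals of 1648 in wt spheroids and 1549 in wt/GFP spheroids, against 4229 in wt monolayer and 3775 in wt/GFP monolayer. EIF2B3, the gamma subunit of its catalytic part, had 534 in wt spheroids and 442 in wt/GFP spheroids, against 1186 in wt monolayer and 1284 in wt/GFP monolayer. EIF2B4, the delta subunit, had 1821 in wt spheroids and 1833 in wt/GFP spheroids, against 2976 in wt monolayer and 3284 in wt/GFP monolayer. For all 3 genes the spheroid and monolayer signals were well apart in both lines. EIF2B3 fell by 1.32 ± 0.16 on the log2 scale, 2.50-fold (limma adjusted p = 5.16e-08), and EIF2B1 by 1.31 ± 0.12, 2.49-fold (limma adjusted p = 4.28e-10). EIF2B4 fell by 0.77 ± 0.12 (limma adjusted p = 4.34e-06). EIF2B2, the beta subunit, fell by 0.65 ± 0.13, and EIF2B5, the epsilon subunit that carries the exchange activity, fell least, by 0.34 ± 0.14 (limma adjusted p = 0.0408). EIF2B5 was also the weakest call, since its brightest probe set missed the threshold when every probe set was tested (adjusted p = 0.0561).

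EIF2S1, the alpha subunit of EIF2 that the stress kinases phosphorylate, had 5651 in wt spheroids and 4714 in wt/GFP spheroids, against 12191 in wt monolayer and 11565 in wt/GFP monolayer. Both spheroid values were far below both monolayer values. EIF2S1 fell by 1.20 ± 0.12, 2.30-fold (limma adjusted p = 1.75e-09), and its 2 dimmer probe sets gave -0.72 (called) and -0.33 (adjusted p = 0.0654). EIF2S2, the beta subunit, fell by 0.58 ± 0.12 (limma adjusted p = 2.53e-04). EIF2S3, the X-linked gamma subunit that binds GTP and the tRNA, had 11908 in wt spheroids and 10324 in wt/GFP spheroids, against 12056 in wt monolayer and 9694 in wt/GFP monolayer. Its groups overlapped, and its estimate was 0.04 ± 0.12 with the deposited scaling. It passed as a fall after median centring (-0.35, limma adjusted p = 0.0135) and with the hybridisation controls (-0.56, limma adjusted p = 0.0419). The subunits of this heterotrimer thus had unequal changes within the same arrays. EIF2S3 had the oligopyrimidine letters at its start and EIF2S1 did not, while EIF2S2 had no promoter match. EIF2A and EIF2D deliver tRNA outside the EIF2 complex. EIF2A rose by 0.31 ± 0.12 (limma adjusted p = 0.0339) with the deposited scaling but was -0.29 with the hybridisation controls. EIF2D, at -0.20 ± 0.12, did not pass the test with the deposited scaling. It passed as a fall after median centring (-0.59, limma adjusted p = 1.82e-04) and with the hybridisation controls (-0.79, limma adjusted p = 0.0332).

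**Figure D3:**
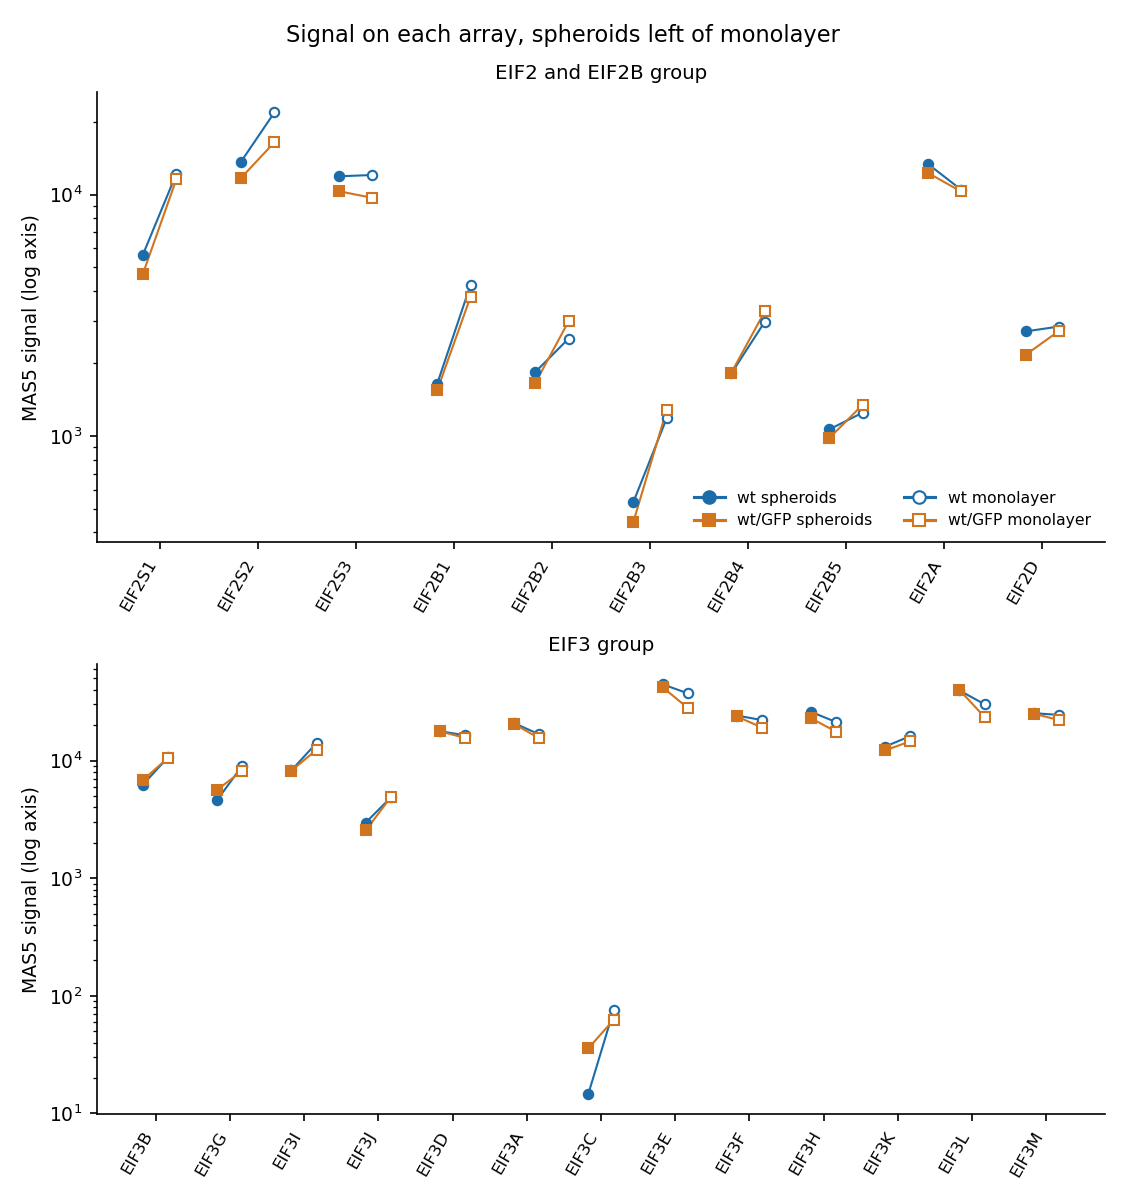
Deposited signal on each of the 4 arrays (log axis) for the 10 genes of the EIF2 and EIF2B group and the 13 EIF3 subunits, with spheroids (filled) left of monolayer (open), circles for HCT116 wt and squares for HCT116 wt/GFP, and lines joining the arrays of a line. The lines climb to the monolayer side for EIF2S1, EIF2S2, EIF2B1 to EIF2B5 and for EIF3B, EIF3G, EIF3I and EIF3J, lie nearly flat for EIF2S3, EIF3D and EIF3M, and drop to the monolayer side for EIF2A, EIF3A, EIF3E, EIF3H and EIF3L.

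EIF3, the scaffold that joins the small ribosomal subunit to the mRNA, did not move as a unit. Of its 13 genes, all tested, 4 rose, 4 fell and 5 did not pass the test, against 30.6% of all genes rising and 18.5% falling. The median of 0.11 with the deposited scaling was -0.11 relative to all genes, and it turned to -0.28 with median centring, -0.48 with the hybridisation controls and -0.0082 when the probe sets of each gene were averaged. With the deposited scaling the calls differed by place in the complex. This grouping was made after the values had been seen, so it carries no test. The estimates did not divide cleanly. EIF3C, in the core, had the lowest of the group, at -1.13, and EIF3D, outside the core, was at 0.15, neither passing the test. The 8 subunits of the octamer core (EIF3A, EIF3C, EIF3E, EIF3F, EIF3H, EIF3K, EIF3L and EIF3M) held all 4 rises and none of the falls with the deposited scaling. EIF3C fell under each of the 3 other scalings, EIF3K under median centring and the hybridisation controls, and EIF3M under the hybridisation controls. Of the 4 EIF3K probe sets, 2 dimmer ones fell with the deposited scaling, by 0.39 and 0.35. The module of EIF3B, EIF3G and EIF3I, which sits apart from the core and touches EIF3A, fell in all 3 genes, between -0.75 and -0.68, and EIF3J, the loosely bound subunit, fell as well.

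EIF3J had signals of 2965 in wt spheroids and 2543 in wt/GFP spheroids, against 4862 in wt monolayer and 4899.7 in wt/GFP monolayer, and fell by 0.83 ± 0.12 (limma adjusted p = 1.09e-06). EIF3G, an RNA-binding subunit, had 4628 in wt spheroids and 5654 in wt/GFP spheroids, against 9069 in wt monolayer and 8188 in wt/GFP monolayer, and fell by 0.75 ± 0.12 (limma adjusted p = 8.59e-06). EIF3B, the scaffold of the module, had 6251 in wt spheroids and 6827 in wt/GFP spheroids, against 10684 in wt monolayer and 10584 in wt/GFP monolayer, and fell by 0.70 ± 0.12 (limma adjusted p = 1.17e-05). In each of these 3 genes both lines fell and no spheroid value reached a monolayer value. EIF3I, a WD-repeat subunit, fell by 0.68 ± 0.12 (limma adjusted p = 2.23e-05). EIF3C, a core subunit, was read by a dim probe set only, since its other probe sets also name EIF3CL, a near-identical copy. That probe set had 14.7 in wt spheroids and 35.8 in wt/GFP spheroids, against 75.1 in wt monolayer and 62.5 in wt/GFP monolayer. Its estimate of -1.13 carried an SE of 0.56 and did not pass the test with the deposited scaling. It passed under the 3 others, at -1.48 after quantile normalization (adjusted p = 0.0322), -1.52 after median centring (adjusted p = 0.0255) and -1.72 with the hybridisation controls (adjusted p = 0.021).

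The rises within EIF3 were small. EIF3L had 39406 in wt spheroids and 39796 in wt/GFP spheroids, against 30021 in wt monolayer and 23354 in wt/GFP monolayer, with both spheroid values above both monolayer values, and its log2 change was 0.58 ± 0.14 (limma adjusted p = 9.57e-04). EIF3E, EIF3A and EIF3H rose by 0.42, 0.36 and 0.33 with the deposited scaling. All 4 were below 0 with the hybridisation controls, EIF3L at -0.01 and EIF3H at -0.26. EIF3A was also below 0, at -0.098, with probe sets that may detect related transcripts left out. The estimates of EIF3F, EIF3D, EIF3M and EIF3K were 0.22, 0.15, 0.11 and -0.28, none of them past the threshold with the deposited scaling. After quantile normalization EIF3F and EIF3D passed as rises (limma adjusted p = 0.0399 and 0.0263). EIF3F, EIF3D, EIF3M and EIF3K carry the oligopyrimidine letters at their starts, while the 4 subunits that rose had no promoter match. EIF3D, which can itself bind the cap of selected mRNAs, is not part of the octamer core.

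In the EIF4 group, the cap-binding proteins EIF4E and EIF4E2 and the scaffolds EIF4G1 and EIF4G2 fell, while the helicase cofactor EIF4B rose under each scaling but that to the hybridisation controls. Of 12 genes, 11 were tested: 6 fell, 3 rose and 2 did not pass the test, against 18.5% of all genes falling and 30.6% rising. The median was -0.35 with the deposited scaling, -0.57 relative to all genes, and it was -0.28 after quantile normalization. With the 3 binding proteins set aside, 6 of the 8 remaining genes fell and 2 rose.

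EIF4E, the cap-binding protein, had signals of 6254 in wt spheroids and 6494 in wt/GFP spheroids, against 8342 in wt monolayer and 9142 in wt/GFP monolayer. EIF4E2, a cap-binding paralog known for repressing translation, had 2128 in wt spheroids and 1752 in wt/GFP spheroids, against 4122 in wt monolayer and 4124 in wt/GFP monolayer. EIF4E3, another cap-binding paralog, had 345 in wt spheroids and 368 in wt/GFP spheroids, against 236 in wt monolayer and 199.6 in wt/GFP monolayer. The paralogs thus went different ways: EIF4E2 fell by 1.09 ± 0.12, 2.13-fold (limma adjusted p = 1.63e-08), EIF4E fell by 0.45 ± 0.12 (limma adjusted p = 0.00167), and EIF4E3 rose by 0.68 ± 0.23 (limma adjusted p = 0.0147) with the deposited scaling, against 0.09 with the hybridisation controls. For EIF4E, 3 other probe sets, at -0.15, -0.20 and 0.58, did not pass the test, and the call was lost when the probe sets were averaged (-0.058, adjusted p = 0.714). For EIF4E2 another probe set fell by 1.13, while 2 dimmer ones, at 0.01 and -0.36, did not pass the test.

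EIF4G1, the scaffold of the cap complex, had 2212 in wt spheroids and 2582 in wt/GFP spheroids, against 4048 in wt monolayer and 3976 in wt/GFP monolayer. EIF4G2, a relative without the EIF4E-binding region, had 20543 in wt spheroids and 19212 in wt/GFP spheroids, against 30364 in wt monolayer and 25765 in wt/GFP monolayer. Both scaffolds were lower in spheroids on every array, EIF4G1 by 0.74 ± 0.12 (limma adjusted p = 6.40e-06) and EIF4G2 by 0.49 ± 0.13 (limma adjusted p = 0.00218). EIF4A3, the helicase paralog that belongs to the exon junction complex, had 14436 in wt spheroids and 13651 in wt/GFP spheroids, against 19544 in wt monolayer and 18586 in wt/GFP monolayer, and fell by 0.44 ± 0.12 (limma adjusted p = 0.00369). EIF4H, a helicase cofactor like EIF4B, fell by 0.35 ± 0.12 (limma adjusted p = 0.0151) with the deposited scaling and missed the threshold after quantile normalization.

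EIF4B, which stimulates the helicase and is a target of the S6 kinases, had 12995 in wt spheroids and 11143 in wt/GFP spheroids, against 7463 in wt monolayer and 6717 in wt/GFP monolayer. Both spheroid arrays were far above both monolayer arrays. EIF4B rose by 0.76 ± 0.12, 1.70-fold (limma adjusted p = 3.48e-06), the highest change of any member, and its 2 other probe sets rose by 1.41 and 0.86. Relative to the median of all genes its change was 0.54. It also passed the test after quantile normalization and after median centring, but with the hybridisation controls its change was 0.17 (adjusted p = 0.62).

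None of the 3 tested genes of proteins that bind EIF4E fell with the deposited scaling, and EIF4EBP1 (-0.43, adjusted p = 0.0031) and EIF4ENIF1 (-0.53, adjusted p = 0.00298) did after median centring. EIF4EBP1 had 2609 in wt spheroids and 2949.9 in wt/GFP spheroids, against 2808 in wt monolayer and 2901 in wt/GFP monolayer, with overlapping groups and an estimate of -0.04 ± 0.12. EIF4EBP2 had 1108 in wt spheroids and 1183 in wt/GFP spheroids, against 688 in wt monolayer and 797 in wt/GFP monolayer, with both spheroid values the higher, and rose by 0.62 ± 0.14 (limma adjusted p = 7.01e-04) with the deposited scaling, against 0.03 with the hybridisation controls. For EIF4EBP2, another probe set nearly as bright was at -0.18 and did not pass the test (limma adjusted p = 0.365), while a dimmer one rose by 0.75. EIF4ENIF1, which carries EIF4E into the nucleus, was at -0.14 ± 0.14 and did not pass the test.

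All 5 genes of the EIF5 and EIF6 families fell, against 18.5% of all genes, with a median of -0.57, and all 5 also fell after quantile normalization. EIF6, which keeps the large ribosomal subunit from joining too early and takes part in making it, had signals of 5094 in wt spheroids and 5009.7 in wt/GFP spheroids, against 11256 in wt monolayer and 10461 in wt/GFP monolayer. EIF5, which activates the GTPase of EIF2, had 9287 in wt spheroids and 9942 in wt/GFP spheroids, against 19013 in wt monolayer and 14635 in wt/GFP monolayer. In both genes the spheroid and monolayer signals did not overlap. EIF6 fell by 1.10 ± 0.12, 2.14-fold (limma adjusted p = 6.65e-09), and EIF5 by 0.79 ± 0.13 (limma adjusted p = 7.55e-06). The change of EIF5 was -1.03 in wt and -0.56 in wt/GFP, a difference that was not tested. EIF5 lost its call, at -0.065, when probe sets that may detect related transcripts were left out (adjusted p = 0.839).

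EIF5A, the hypusine-bearing factor that helps ribosomes past difficult peptide bonds, had 22877 in wt spheroids and 20203 in wt/GFP spheroids, against 36447 in wt monolayer and 28101 in wt/GFP monolayer. Its paralog EIF5A2 had 755 in wt spheroids and 767 in wt/GFP spheroids, against 998 in wt monolayer and 968 in wt/GFP monolayer. EIF5A fell by 0.57 ± 0.13 (limma adjusted p = 6.16e-04) and EIF5A2 by 0.36 ± 0.15 (limma adjusted p = 0.0406), with no overlap between the groups in either. The call of EIF5A2 was lost when every probe set was tested (adjusted p = 0.0526), with no filter (adjusted p = 0.0619) and without probe sets that may detect related transcripts (adjusted p = 0.0553). EIF5B, the GTPase that joins the ribosomal subunits, had 7756 in wt spheroids and 6732 in wt/GFP spheroids, against 10301 in wt monolayer and 9177 in wt/GFP monolayer, and fell by 0.43 ± 0.12 (limma adjusted p = 0.00293).

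No gene of an elongation factor proper fell with the deposited scaling, although EEF1D did after median centring (-0.45, limma adjusted p = 0.00442) and with the hybridisation controls (-0.65, limma adjusted p = 0.00125). Of the 9 genes of the EEF group, all tested, 3 rose, 2 fell and 4 did not pass the test, against 30.6% of all genes rising and 18.5% falling. The median of 0.41 with the deposited scaling was 0.19 relative to all genes, and it was -0.18 with the hybridisation controls and 0.16 without the wt/GFP spheroid array or without the wt monolayer array. Of the 4 factors proper, EEF1A1 and EEF2 rose and EEF1A2 and EEF1D did not pass the test, and both genes that fell encode enzymes that methylate EEF1A.

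EEF1A1, which brings aminoacyl-tRNA to the ribosome, had 59415 in wt spheroids and 60734 in wt/GFP spheroids, against 53516 in wt monolayer and 37935 in wt/GFP monolayer. EEF2, the translocase, had 44944 in wt spheroids and 46371 in wt/GFP spheroids, against 34614 in wt monolayer and 27408 in wt/GFP monolayer. Both were higher on both spheroid arrays, and both were lowest on the wt/GFP monolayer array, whose highest signals were also the lowest of the 4 arrays. EEF2 rose by 0.57 ± 0.14 (limma adjusted p = 0.00146), with another probe set at 0.66, and was -0.02 with the hybridisation controls. EEF1A1 rose by 0.41 ± 0.15 (limma adjusted p = 0.0259) with the deposited scaling, but its change was -0.005 after quantile normalization and -0.18 with the hybridisation controls. The brighter EEF1A1 probe sets are of the kind that can also detect related transcripts. EEF1A2, the paralog of muscle and neurons, had 3018 in wt spheroids and 3328 in wt/GFP spheroids, against 2569.7 in wt monolayer and 2838 in wt/GFP monolayer, with an estimate of 0.23 ± 0.12 that did not pass the test. EEF1D, a subunit of the exchange factor for EEF1A, was at -0.05 ± 0.13.

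Among the enzymes that modify elongation factors, EEF1AKMT2, a lysine methyltransferase of EEF1A, had 1563 in wt spheroids and 1037 in wt/GFP spheroids, against 2497 in wt monolayer and 2511 in wt/GFP monolayer. EEF1AKMT1, another of these methyltransferases, had 795 in wt spheroids and 686 in wt/GFP spheroids, against 1124 in wt monolayer and 1175 in wt/GFP monolayer. Neither gene overlapped between the growth conditions. EEF1AKMT2 fell by 0.97 ± 0.14 (limma adjusted p = 1.00e-06) and EEF1AKMT1 by 0.63 ± 0.15 (limma adjusted p = 6.79e-04). EEF1AKMT3 had 339 in wt spheroids and 347 in wt/GFP spheroids, against 253 in wt monolayer and 225 in wt/GFP monolayer, and its estimate of 0.50 ± 0.22 did not pass the test. EEF2K, the kinase that inactivates EEF2, rose by 0.48 ± 0.14 (limma adjusted p = 0.00583) with the deposited scaling and was -0.11 with the hybridisation controls. EEF2KMT, which methylates EEF2, had opposite signs in the 2 lines and did not pass the test.

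Both release factors fell, against 18.5% of all genes. For each of them both spheroid signals lay below both monolayer signals, against 26.5% of all genes. ETF1, which reads the stop codons, had signals of 6527 in wt spheroids and 5982 in wt/GFP spheroids, against 11592 in wt monolayer and 10914 in wt/GFP monolayer, and fell by 0.85 ± 0.12 (limma adjusted p = 6.32e-07). GSPT1, its GTPase partner, had 5879.7 in wt spheroids and 6144 in wt/GFP spheroids, against 8593 in wt monolayer and 8591 in wt/GFP monolayer, and fell by 0.51 ± 0.11 (limma adjusted p = 4.63e-04). The GSPT1 probe sets were at odds, as described next, and their mean gave a change of 0.14 in place of the fall.

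Many of the genes were read by several probe sets, which bind different stretches of a transcript. Of the 143 probe sets, 133 passed the filter; tested singly over all probe sets, 52 fell and 27 rose, against 16.1% and 26.6% of all probe sets. Among the 34 genes with several probe sets that passed, 20 had several calls that all went the same way. EEF1D and GSPT1 had calls both ways. For GSPT1, a dimmer probe set had 696 in wt spheroids and 805 in wt/GFP spheroids, against 232 in wt monolayer and 287 in wt/GFP monolayer, a rise of 1.49, and another rose by 1.07, whereas the 2 bright ones fell by 0.51 and 0.40. For EEF1D, 1 probe set fell by 0.31 and 2 dimmer ones rose by 0.71 and 0.56. Which transcripts these probe sets read was not tested.

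The size of a change also differed between probe sets of a gene. EIF5A fell by 0.57 by its brightest probe set, and by 1.32 and 1.43 by its 2 dimmer ones. The last of these had 3684 in wt spheroids and 3382 in wt/GFP spheroids, against 9218 in wt monolayer and 9867 in wt/GFP monolayer. EIF5 fell by 0.79 by its brightest and by 0.84, 1.36 and 1.42 by 3 dimmer probe sets, whereas its dimmest was at -0.07 (adjusted p = 0.847). ETF1 fell by 1.27 by its dimmer probe set. In EEF1A1 the 4 brightest probe sets gave between 0.29 and 0.41, a dimmer one, at 3858 in wt spheroids and 3602 in wt/GFP spheroids, against 1314 in wt monolayer and 1379.9 in wt/GFP monolayer, rose by 1.46, and the dimmest was at 0.34. In EIF2S1 the largest fall was in the brightest probe set. With probe sets that may detect related transcripts left out, EIF2B5, EIF2S2, EIF3B, EIF4E, EIF5 and EIF5A2 no longer passed as falls and EIF3E no longer as a rise, and with probe sets averaged EIF4E, EIF1B, EIF3A and EIF4E3 lost their calls.

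**Figure D4:**
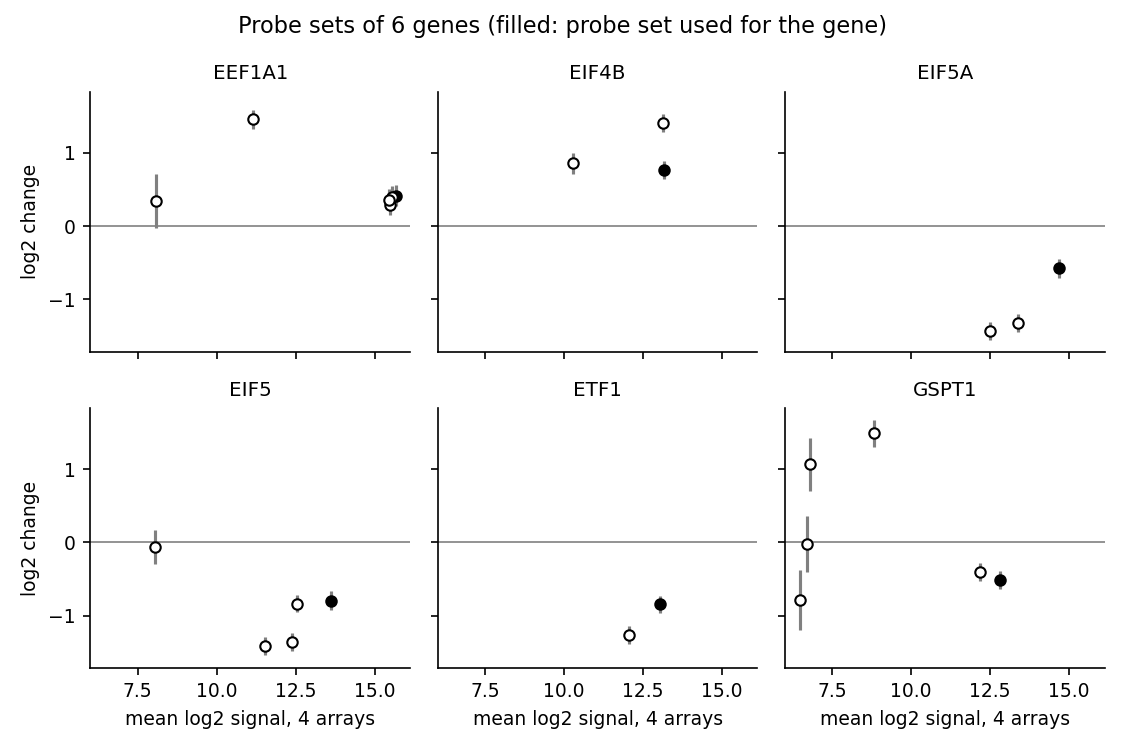
Log2 change of every probe set that passed the filter, spheroids minus monolayer, against its mean log2 signal over the 4 arrays, for EEF1A1, EIF4B, EIF5A, EIF5, ETF1 and GSPT1; bars are 1 SE and the filled point is the probe set that stood for the gene. In EIF5A and ETF1 the dimmer probe sets lie farther from 0 than the filled one, and in GSPT1 the probe sets lie on both sides of 0.

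The order of the 4 families was kept after quantile normalization, with smaller gaps at the upper end. The medians were then -0.55 for the EIF2 and EIF2B group, -0.28 for EIF4, 0.07 for EIF3 and 0.12 for EEF, against 0.02 for all genes. With the hybridisation controls they were -1.21, -0.94, -0.48 and -0.18, against -0.37 for all genes, and this scaling and median centring cannot alter the order or the distance from all genes, since they move every gene equally. Families were not tested against each other, since the genes of a family are not replicates.

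**Figure D5:**
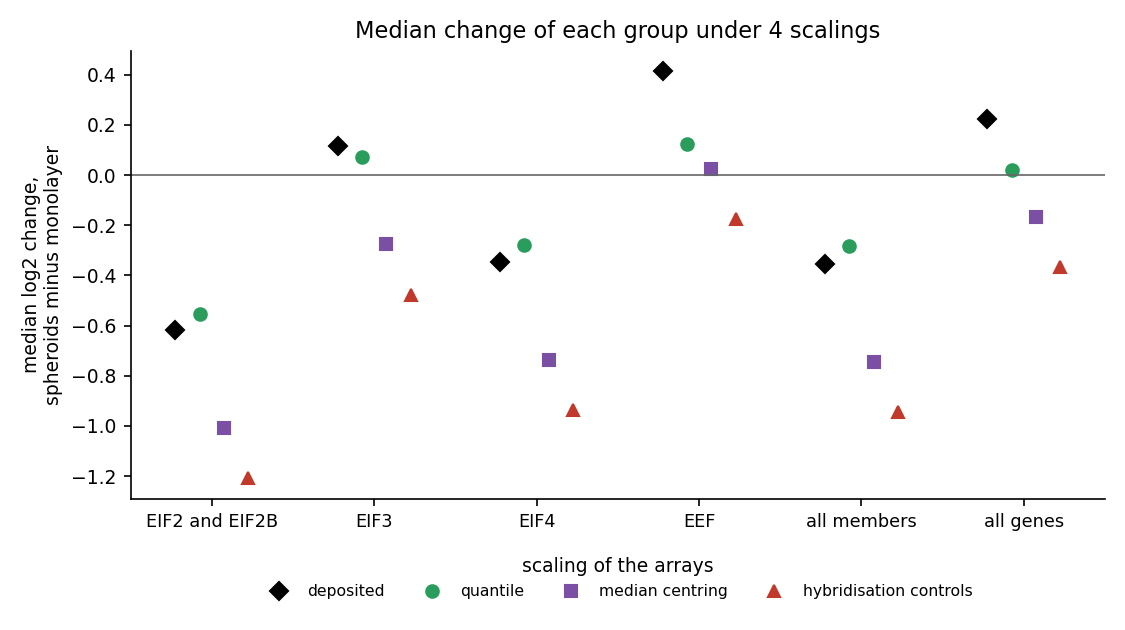
Median log2 change, spheroids minus monolayer, of the 4 families, of all 54 members and of all 14349 genes under the deposited scaling and 3 others. The EIF2 and EIF2B group runs from -0.55 to -1.21 while EIF3 and EEF lie on both sides of 0 depending on the scaling.

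Genes that act on these factors moved in both directions. Of the 4 EIF2 kinases and 5 phosphatase genes, all tested, 5 rose, 1 fell and 3 did not pass the test, against 30.6% of all genes rising and 18.5% falling. EIF2AK3, the kinase of endoplasmic reticulum stress, had 1481 in wt spheroids and 1711 in wt/GFP spheroids, against 831 in wt monolayer and 735 in wt/GFP monolayer. It rose by 1.01 ± 0.14 (limma adjusted p = 8.46e-07) with the deposited scaling and was 0.42 with the hybridisation controls. PPP1R15B, which directs the phosphatase to EIF2, rose by 0.81 ± 0.12 with the deposited scaling and was 0.22 with the hybridisation controls. PPP1CA, a catalytic subunit, fell by 0.97 ± 0.11, and the stress-induced PPP1R15A, at -0.45 ± 0.21, did not pass the test. None of the 5 rises passed under all 4 scalings, while the fall of PPP1CA did. 

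Of 12 kinases and regulators of cap binding, 3 rose, 4 fell and 5 did not pass the test, against 30.6% of all genes rising and 18.5% falling. DEPTOR, an inhibitor that binds MTOR, had 949 in wt spheroids and 981 in wt/GFP spheroids, against 86.0 in wt monolayer and 102 in wt/GFP monolayer, and rose by 3.18 ± 0.22 (limma adjusted p = 1.74e-12). MKNK2, a kinase that phosphorylates EIF4E, had 21607 in wt spheroids and 22044 in wt/GFP spheroids, against 6159.9 in wt monolayer and 6886 in wt/GFP monolayer, and rose by 1.74 ± 0.12 (limma adjusted p = 2.27e-12). With the hybridisation controls these 2 still rose, by 2.59 and 1.15. TSC1, which restrains MTOR, rose by 0.92 with the deposited scaling, AKT1S1, a subunit of the MTOR complex, fell by 0.76, and MTOR itself was at -0.005 ± 0.21.

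Of 18 factors at the mRNA ends and in recycling, 15 were tested, and 4 rose, 6 fell and 5 did not pass the test, against 30.6% of all genes rising and 18.5% falling. PAIP2B, which displaces the poly(A)-binding protein, rose by 1.86 ± 0.24. NCBP1 of the nuclear cap-binding complex fell by 1.27 ± 0.14, MCTS1, which works in recycling and reinitiation, by 1.22 ± 0.11, and the helicase DHX29 by 1.10 ± 0.12. PABPC1, the main poly(A)-binding protein, rose by 0.37 with the deposited scaling and was -0.22 with the hybridisation controls. Of 9 hypusine and diphthamide enzymes, which modify EIF5A and EEF2, 8 were tested: 4 fell, 1 rose and 3 did not pass the test, against 18.5% of all genes falling and 30.6% rising. DOHH, which completes hypusine on EIF5A, had 235 in wt spheroids and 351 in wt/GFP spheroids, against 553 in wt monolayer and 632 in wt/GFP monolayer, and fell by 1.01 ± 0.19 (limma adjusted p = 8.23e-05), and DPH3, of the diphthamide pathway, fell by 1.01 ± 0.12. DPH7 fell by 0.53 and DNAJC24 rose by 0.44 with the deposited scaling. Of 9 mitochondrial translation factors, 8 were tested: 3 fell, 1 rose and 4 did not pass the test, against 18.5% of all genes falling and 30.6% rising. TSFM, the mitochondrial exchange factor, fell by 1.06 ± 0.12, MTIF2 by 0.80 and TUFM by 0.49, while MTIF3 rose by 0.68 with the deposited scaling.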

How the data were processed

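Total RNA was measured on 4 arrays, of spheroids and monolayer of 2 lines, HCT116 wt and wt/GFP. The authors deposited MAS5 signals, per the submitters' processing notes, which are linear intensity values with 1 value per probe set. Each array had a mean of about 500.1 when 2% of values at either end were left out. The version and settings of MAS5 are not stated there. No reads or depths exist for arrays, so precision is set by how many arrays there are.

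Of 54675 probe sets, 62 were controls. The platform annotation gave 1 symbol to 41091 probe sets, several to 1801 and none to 11721. Symbols were updated through the gene ID for 41037. Probe sets with several symbols were not used. EIF4A1, EEF1B2, EEF1G and EIF4EBP3 are therefore not analysed here, and 17 probe sets that match the name pattern were left out by the rule. From the deposited intensity values, log2(signal + 14.0) was computed, the pseudocount being the 25th percentile of all values, so fold changes of dim genes are understated. Probe sets with a mean log2 value above the 40th percentile (a signal of 30.6) were kept, and the brightest of these stood for the gene.

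Changes were fitted with limma 3.58.1 in R 4.3.3 (lmFit, then eBayes with an intensity trend) over 14349 genes, with growth condition and cell line as terms, two-sided, and Benjamini-Hochberg adjustment over all genes. A gene was called under an adjusted p of 0.05. The fit left 1 residual degree of freedom, and the prior degrees of freedom, 25.9, were estimated from it and are themselves uncertain. Arrays were paired because each cell line was grown both ways, per the labels. The deviations of same-line arrays from their group means correlated at 0.00684 over all genes.

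The members and gene lists were chosen with earlier results of these data known. Array values are given for up to 4 members of each family with the largest change and for paralog sets, and up to 4 genes of each pathway list are named by size of change; PABPC1, MTOR and single probe sets were chosen for naming after their values were seen. The fit was tested on simulated data, where the estimated prior gave more false calls than the nominal rate and a prior of 10 degrees of freedom did not, so the printed adjusted p-values are likely too small and the counts of calls too high. Alternatives covered scaling, pseudocount, filter, probe set choice, pairing, variance moderation and leaving out each array.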

Additional observations from a re-analysis of the deposited data

Results flagged for a closer look

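In 4 genes the difference between spheroids and monolayer had opposite signs in the 2 cell lines. With the deposited scaling none of these genes passed the test over both lines. The difference between the lines was not tested, since each line had 1 array per growth condition. EEF2KMT changed sign by the widest margin, at 1.28 on the log2 scale in wt and -0.28 in wt/GFP. The EEF2KMT signal was 141 in wt spheroids and 248 in wt/GFP spheroids, against 50.1 in wt monolayer and 304 in wt/GFP monolayer, so the wt monolayer array stood lowest. EIF1 was at -0.071 in wt and 0.33 in wt/GFP. EIF4EBP1 was at -0.11 in wt and 0.024 in wt/GFP, and EIF2S3 at -0.018 in wt and 0.091 in wt/GFP.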

How the results depend on the processing

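With 4 arrays and 1 residual degree of freedom, the calls lean on the variance shared across genes, and a prior of 10 degrees of freedom, an alternative chosen after seeing the data, gave 9 rises and 26 falls in place of 12 and 28. EIF2B1, EIF2B3, EIF2B4, EIF2S1, EIF3J, EIF6, ETF1 and EIF1AD kept their fall in every alternative that gave them a value. With no intensity trend there was 1 rise and 9 falls, with no filter on dim probe sets 5 rises, and without the replicate block (the pairing by cell line) 6 rises and 28 falls. Each family median was the same with and without the pairing, by construction, since in this balanced design the pairing alters only the SE and the calls. After quantile normalization the EIF4 median was -0.28 and the EEF median 0.12, with EEF1A1 at -0.0051, EIF4EBP1 at 0.042 and EIF1 at -0.20 turned in sign. Median centring left 1 rise and gave family medians of -1.01 (EIF2 and EIF2B), -0.28 (EIF3), -0.74 (EIF4) and 0.024 (EEF). It turned EEF1A2 at -0.16, EIF2A at -0.085, EIF2S3 at -0.35, EIF3A at -0.032, EIF3D at -0.24, EIF3F at -0.17, EIF3H at -0.057, EIF3M at -0.28, EIF1 at -0.26 and EIF1B at -0.092. Scaling to the hybridisation controls left 0 rises (limma) and gave medians of -1.21, -0.48, -0.94 and -0.18 in the same order of families. It turned EEF1A1 at -0.18, EEF1A2 at -0.36, EEF1AKMT3 at -0.090, EEF2 at -0.024, EEF2K at -0.11, EEF2KMT at -0.093, EIF2A at -0.29, EIF2S3 at -0.56, EIF3A at -0.23, EIF3D at -0.44, EIF3E at -0.17, EIF3F at -0.37, EIF3H at -0.26, EIF3L at -0.011, EIF3M at -0.48, EIF1 at -0.46 and EIF1B at -0.29. These shifts follow from each scaling's own construction, which moves all genes of an array together, or in quantile normalization all genes of like brightness. With the median signal as pseudocount the EEF median was 0.32. Averaging the probe sets of each gene gave medians of -0.0082 (EIF3), -0.14 (EIF4) and 0.43 (EEF), and turned EEF1D at 0.22, EIF3M at -0.0082 and GSPT1 at 0.14. Without probe sets that may detect related transcripts, 14 of 43 tested members fell, the medians were -0.50 (EIF2 and EIF2B), -0.041 (EIF4) and 0.23 (EEF), and the turned values were EIF3A at -0.098, EIF3K at 0.046, EIF4E2 at 0.012 and GSPT1 at 1.49. Testing each probe set alone gave 27 rises and 52 falls among 133 probe sets, with medians of -0.026 (EIF3), -0.15 (EIF4) and 0.40 (EEF). Leaving out each array in turn, with no cell line term, gave 2 to 10 rises and 22 to 25 falls. The EIF2 and EIF2B median then ran from -0.71 to -0.52. The EIF3 median then ran from 0.041 to 0.19. The EIF4 median then ran from -0.37 to -0.32. The EEF median then ran from 0.16 to 0.43. Among genes not called with all arrays, the sign then varied for EIF2S3 (-0.12 to 0.19), EIF4EBP1 (-0.13 to 0.047), EEF1D (-0.20 to 0.094), EEF2KMT (-0.66 to 1.65) and EIF1 (-0.083 to 0.34). A gene with only probe sets left out by an alternative has no value under it. Shares of all genes are given above for the 4 scalings and for single probe sets only, so the other counts cannot be set against all genes.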

Other observations

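The E-box letters CACGTG, searched on both strands (the letters are the same on each) anywhere in the RefSeq promoter windows of 250 bases before to 50 bases after a start, stood in 11 of the 42 matched members (26.2%), against 12.1% of 11506 tested genes. They were present in 6 of the 25 members that fell (EIF2B3, EIF4G1, EIF4E, EIF4A3, EIF5A2 and EIF4H), in 3 of the 8 that rose with the deposited scaling (EIF4B, EIF1B and EEF2K) and in 2 of the 9 that did not pass the test (EIF3F and EIF3K). Among all tested genes they stood in 14.9% of those that fell and 11.3% of those that rose. The motif was chosen after the values had been seen and carries no test, and a match in these letters is not a bound site.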
